A study of Homo sapiens with 6 samples.

Results

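The unfolded protein response and the amino acid response were examined through 45 listed genes in the human pancreatic cancer line L3.6pl. The genes were chosen by name, as sensors of endoplasmic reticulum (ER) stress, targets of the transcription factor ATF4, and enzymes of serine and asparagine synthesis. Earlier results of these data were known when the genes were chosen. All 45 had a row among the 23245 gene rows used. The libraries were 3 from ARID1A-deficient cells, titled ARID1Ako, and 3 from parental cells labelled WT, all L3.6pl grown in medium with fetal calf serum and, per the series text, without treatment. ARID1A is a DNA-binding subunit of SWI/SNF, a complex that moves nucleosomes. The labels do not say how many clones the ARID1A-deficient cells came from, how the gene was disrupted or whether triplicates were separate cultures, so p-values measure the spread between these libraries, which may be technical. The comparison asks which transcripts of these stress pathways differ between ARID1A-deficient and parental cells.

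The ER folds secreted and membrane proteins. When unfolded proteins build up there, the membrane sensors ATF6, IRE1 and PERK raise the production of chaperones and of the machinery that removes misfolded proteins. PERK and the amino acid sensor GCN2 both phosphorylate the translation factor eIF2, which slows protein synthesis in general and raises translation of ATF4. ATF4 in turn activates genes for amino acid transport and synthesis, and this shared arm is called the integrated stress response.

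Levels are in FPKM, fragments per kilobase of transcript scaled to the library, so different genes are compared per length. The tables summed to between 576084 and 792187 FPKM, and fragment totals are not among the values; the spacing of the lowest values put the libraries at 0.732 to 1.27 times the depth of parental library 1, if values were scaled to the total. ARID1A itself measured 3.55, 3.28 and 3.61 FPKM in ARID1A-deficient libraries, against 11.8, 6.76 and 9.42 FPKM in parental libraries (limma adjusted p = 0.0061). Of the epithelial markers, KRT8, KRT18 and KRT19 lay between 709 and 2705 FPKM in all 6 libraries, EPCAM between 187 and 269 FPKM and CDH1 between 3.37 and 6.01 FPKM. KRT8, KRT19, EPCAM and CDH1 were lower in every ARID1A-deficient library than in any parental one, with log2 fold changes of -0.71, -0.77, -0.36 and -0.43, and none of these was called (lowest adjusted p = 0.0828). Of markers of other cell types, those of T cells, leukocytes and fibroblasts (CD3E, PTPRC, LYZ, CD14, DCN, LUM, PDGFRB) lay at 0.339 FPKM or less. The endothelial markers were mixed: VWF lay at 0.0291 FPKM or less, CDH5 at 7.51 to 7.83 FPKM in ARID1A-deficient libraries and 6.22 to 8.09 FPKM in parental libraries, and PECAM1 at 1.11 to 1.39 and 1.91 to 2.18 FPKM (adjusted p = 0.0254). SDC1, a plasma cell marker that epithelium also makes, lay at 70.3 to 79.4 FPKM in ARID1A-deficient libraries and 123 to 142 FPKM in parental libraries (adjusted p = 0.00487), while IGJ was listed at 0 and MZB1 lay at 0.268 FPKM or less. The acinar markers CPA1, CELA3A and AMY2A lay at 0.233 FPKM or less, and PRSS1 at 1.202 to 2.92 FPKM in ARID1A-deficient libraries and 0.939 to 1.09 FPKM in parental libraries. The part of these markers in the results below was not tested. In bulk RNA, fewer cells of a type and less RNA per cell cannot be told apart.

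Parental library 2 stood apart from the other parental libraries for these genes. It was the highest of the 3 for 24 of 43 measurable genes, the lowest for 15 and in between for 4. SEC61B, with the shortest transcript, measured 476 FPKM there, against 268 and 309 FPKM in parental libraries 1 and 3. SEL1L, with one of the longest transcripts, measured 6.36 FPKM there, against 11.5 and 9.12 FPKM. Across the 43 genes, the deviation of parental library 2 from the mean of the other parental libraries had a Pearson's r of -0.75 with log2 transcript length, and the same deviation of ARID1A-deficient library 2 had an r of -0.60. These are descriptions over genes that share their libraries. Counts over all 43 genes and over the related lists are therefore also given without parental library 2.

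**Figure D1:**
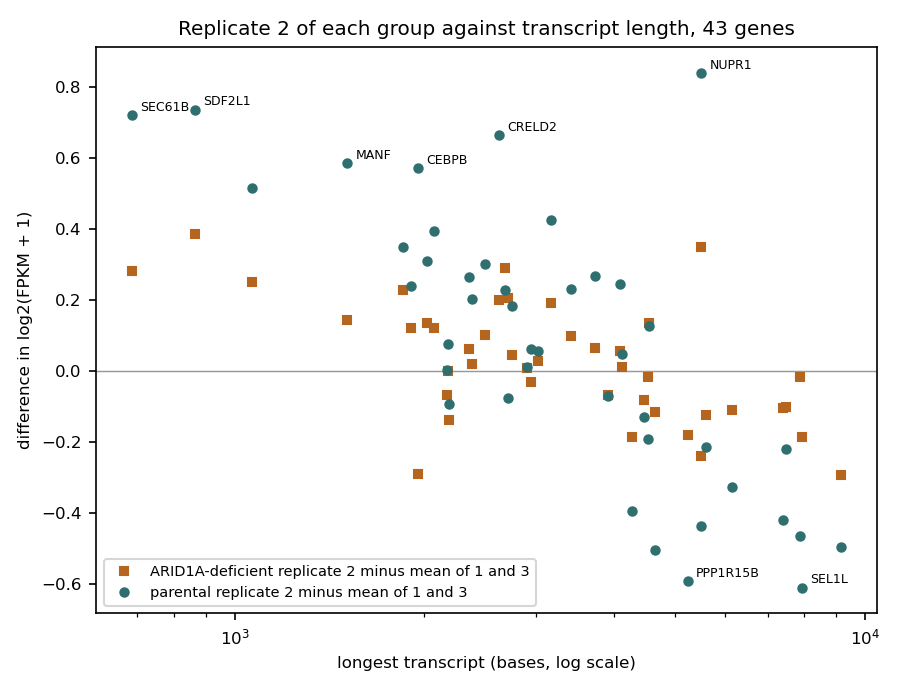
Difference in log2(FPKM + 1) between replicate 2 and the mean of replicates 1 and 3 of the same group (vertical axis) against the longest annotated transcript in bases (horizontal axis, log scale), 1 point per gene and group for 43 genes. Short transcripts such as SEC61B and SDF2L1 lie above 0 and long ones such as SEL1L below 0 in parental library 2, and the ARID1A-deficient points slope the same way over a smaller range.

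Of the 45 genes, 43 reached a mean of 0.5 FPKM and were tested with limma on log2(FPKM + 1), and 4 rose and 3 fell in ARID1A-deficient cells at an adjusted p under 0.05. That is 16.3% of the genes tested, against 15.9% of all 12826 genes tested, of which 7.82% were higher and 8.11% lower, so the share of called genes lies near the background. Those that rose were CREB3L1, PPP1R15A, CHAC1 and ATF5, and those that fell were SHMT1, MTHFD2 and PSAT1. The median log2 fold change of the 43 genes was -0.05, against -0.01 over all genes tested. The ranges of the groups did not overlap for 19 of the 43, 7 higher and 12 lower in ARID1A-deficient cells, where 35.3% of all genes tested had groups apart. Without parental library 2, 8 genes were called higher and 8 lower. Without ARID1A-deficient library 2 or 3, or without parental library 3, 1 was called higher (CREB3L1) and 1 lower (SHMT1). All genes called also varied in number with the library left out, so 15.9% is not the background of these counts. The changes in count with a library left out are therefore not read as results about these genes.

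**Figure D2:**
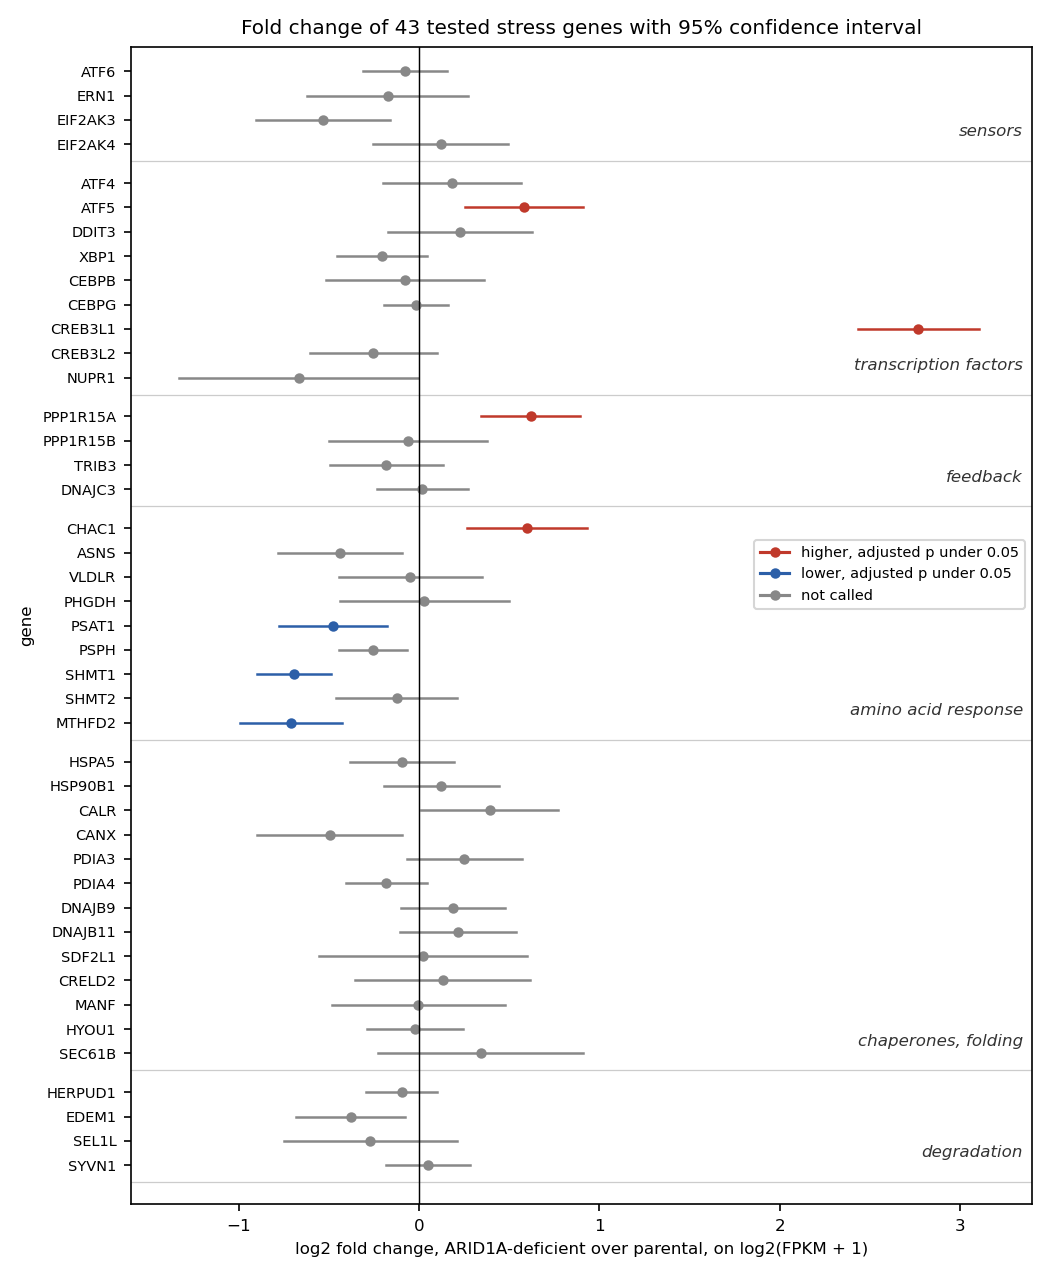
Log2 fold change of each of 43 tested genes, ARID1A-deficient over parental, on the log2(FPKM + 1) scale (horizontal axis), with genes grouped by role down the page. Points are limma estimates from 3 libraries a group and lines their 95% confidence intervals; CREB3L1 at 2.77 lies far from the other genes, which lie between -0.71 and 0.62.

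The sensors of ER and amino acid stress had no called gene among 4 tested, and before adjustment 0 of them were higher and 1 lower at p under 0.05. Of all 12826 genes tested, 15.9% were called, and before adjustment 1771 were higher and 2010 lower. EIF2AK3, which encodes PERK, measured 4.36, 3.78 and 4.01 FPKM in ARID1A-deficient libraries, against 7.26, 4.78 and 7.16 FPKM in parental libraries. Every ARID1A-deficient value lay below every parental value, and parental library 2 was the parental value nearest to them. The log2 fold change was -0.53 (SE 0.16, adjusted p = 0.0638), and -0.70 (adjusted p = 0.00143) without parental library 2. With any other single library left out EIF2AK3 was not called (highest adjusted p = 0.213). EIF2AK3 was also called lower with quantile normalization (adjusted p = 0.0242) and with a length slope covariate (adjusted p = 0.00604). Of the tested genes around EIF2AK3, 20 on each side along chromosome 2, the median log2 fold change was -0.25, and its part in the result was not tested. ATF6, whose protein is cut in the Golgi to release a transcription factor, measured 7.27, 6.74 and 7.36 FPKM in ARID1A-deficient libraries and 8.07, 6.74 and 7.96 FPKM in parental libraries, which overlapped (log2 fold change -0.08, 95% confidence interval -0.31 to 0.16). ERN1, which encodes the kinase and RNA-splicing enzyme IRE1 alpha, was low, at 0.622, 0.425 and 0.281 FPKM in ARID1A-deficient libraries and 1.12, 0.308 and 0.54 FPKM in parental libraries. Both groups of ERN1 values overlapped and spread widely. EIF2AK4, which encodes GCN2, the kinase that binds uncharged transfer RNA, measured 16.3, 12.7 and 14.2 FPKM in ARID1A-deficient libraries and 15.9, 10.6 and 13.4 FPKM in parental libraries. Within both groups library 2 was the lowest for EIF2AK4 (log2 fold change 0.12, 95% confidence interval -0.26 to 0.50). ERN2, the IRE1 gene of mucus-secreting epithelium, reached at most 0.0301 FPKM in ARID1A-deficient libraries and 0.0383 FPKM in parental libraries and was not tested.

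CREB3L1 showed the widest separation. It encodes OASIS, an ER membrane transcription factor that is released by cutting and is known in bone-forming cells for driving collagen production. CREB3L1 measured 6.99, 9.35 and 7.95 FPKM in ARID1A-deficient libraries, against 0.371, 0.474 and 0.156 FPKM in parental libraries. The lowest ARID1A-deficient value thus lay far above the highest parental value. ARID1A-deficient libraries averaged 8.10 ± 1.19 FPKM and parental libraries 0.334 ± 0.163 FPKM (SD, n = 3 each), a 24.3-fold rise whose size is imprecise because the parental values are so low. On the log2(FPKM + 1) scale the change was 2.77 (SE 0.14, adjusted p = 5.13e-05), and it was called with each single library left out (highest adjusted p = 0.00099). The 40 tested neighbours of CREB3L1 on chromosome 11 had a median log2 fold change of 0.05. CREB3L2, its close relative, measured 2.99, 2.64 and 2.84 FPKM in ARID1A-deficient libraries and 4.48, 2.75 and 3.602 FPKM in parental libraries. These ranges met at parental library 2, and the log2 fold change was -0.25 (adjusted p = 0.312), or -0.40 without that library (adjusted p = 0.0342). CREB3L2 was not called with any other single library left out (highest adjusted p = 0.619).

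ATF4, the transcription factor at the centre of the integrated stress response, was abundant in every library. It measured 440, 509 and 488 FPKM in ARID1A-deficient libraries, against 373, 486 and 412 FPKM in parental libraries. The groups overlapped, and the log2 fold change was 0.18 (95% confidence interval -0.20 to 0.57, adjusted p = 0.519). ATF4 is controlled largely at translation, so its transcript level is an incomplete guide to the protein. Annotation lists 4 named ATF4 pseudogenes that could share reads. ATF5, a related factor that is also under translational control, measured 27.2, 31.8 and 31.2 FPKM in ARID1A-deficient libraries, against 16.8, 23.9 and 19.1 FPKM in parental libraries. All ATF5 values in ARID1A-deficient libraries were above all parental ones, a 1.51-fold rise (log2 fold change 0.58, SE 0.14, adjusted p = 0.0324). The ATF5 call held with parental library 2 left out and ended without any other single library (highest adjusted p = 0.13). ATF5 shares 23.7% of its exonic bases with other genes, most with NUP62 on the opposite strand, and without strand information the reads of both cannot be separated there.

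DDIT3, which encodes CHOP, a factor linked to cell death under prolonged stress, measured 28.5, 35.3 and 30.6 FPKM in ARID1A-deficient libraries and 22.1, 34.1 and 25.2 FPKM in parental libraries. The DDIT3 groups overlapped through parental library 2, and the log2 fold change was 0.22 (adjusted p = 0.435), or 0.40 without that library (adjusted p = 0.027). With any other single library left out DDIT3 was not called (highest adjusted p = 0.772). DDIT3 shares 39.6% of its exonic bases with other genes, most with MARS on the opposite strand. XBP1, whose messenger RNA is spliced by IRE1, measured 127, 115 and 114 FPKM in ARID1A-deficient libraries, against 134, 137 and 140 FPKM in parental libraries. The XBP1 groups lay apart by little, with a log2 fold change of -0.21 (SE 0.11, adjusted p = 0.247), and the spliced form is not resolved. NUPR1, a small stress-induced chromatin protein, measured 110, 164 and 151 FPKM in ARID1A-deficient libraries, against 167, 329 and 201 FPKM in parental libraries. Parental library 2 widened the NUPR1 spread, and the difference was not called (log2 fold change -0.67, SE 0.28, adjusted p = 0.165), but it was with quantile normalization (-0.74, adjusted p = 0.0164) and with a length slope covariate (-0.85, adjusted p = 0.00231). The 40 tested neighbours of NUPR1 on chromosome 16 had a median log2 fold change of -0.27, and their part was not tested. CEBPB and CEBPG, partners of ATF4 in binding DNA, had log2 fold changes of -0.08 and -0.02.

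The feedback regulators gave 1 call among 4, where 15.9% of all genes tested were called. PPP1R15A, which encodes GADD34, the stress-induced subunit that directs a phosphatase to eIF2 and restores translation, measured 18.5, 21.1 and 23.5 FPKM in ARID1A-deficient libraries, against 12.0, 14.7 and 13.3 FPKM in parental libraries. No PPP1R15A values overlapped between groups. The gene rose 1.58-fold (log2 fold change 0.62, SE 0.12, adjusted p = 0.0138), a call that ended without ARID1A-deficient library 2 or 3 or parental library 3 (highest adjusted p = 0.0655). PPP1R15B, the constitutive counterpart, measured 11.1, 8.998 and 9.59 FPKM in ARID1A-deficient libraries and 13.02, 7.63 and 11.1 FPKM in parental libraries, which overlapped. TRIB3, a pseudokinase induced by ATF4 and CHOP, measured 91.9, 106 and 105 FPKM in ARID1A-deficient libraries and 104, 132 and 110 FPKM in parental libraries. The TRIB3 groups overlapped by their nearest values (log2 fold change -0.18, 95% confidence interval -0.50 to 0.13). DNAJC3, an ER co-chaperone first described as an inhibitor of eIF2 kinases, had a log2 fold change of 0.02 (95% confidence interval -0.24 to 0.27).

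**Figure D3:**
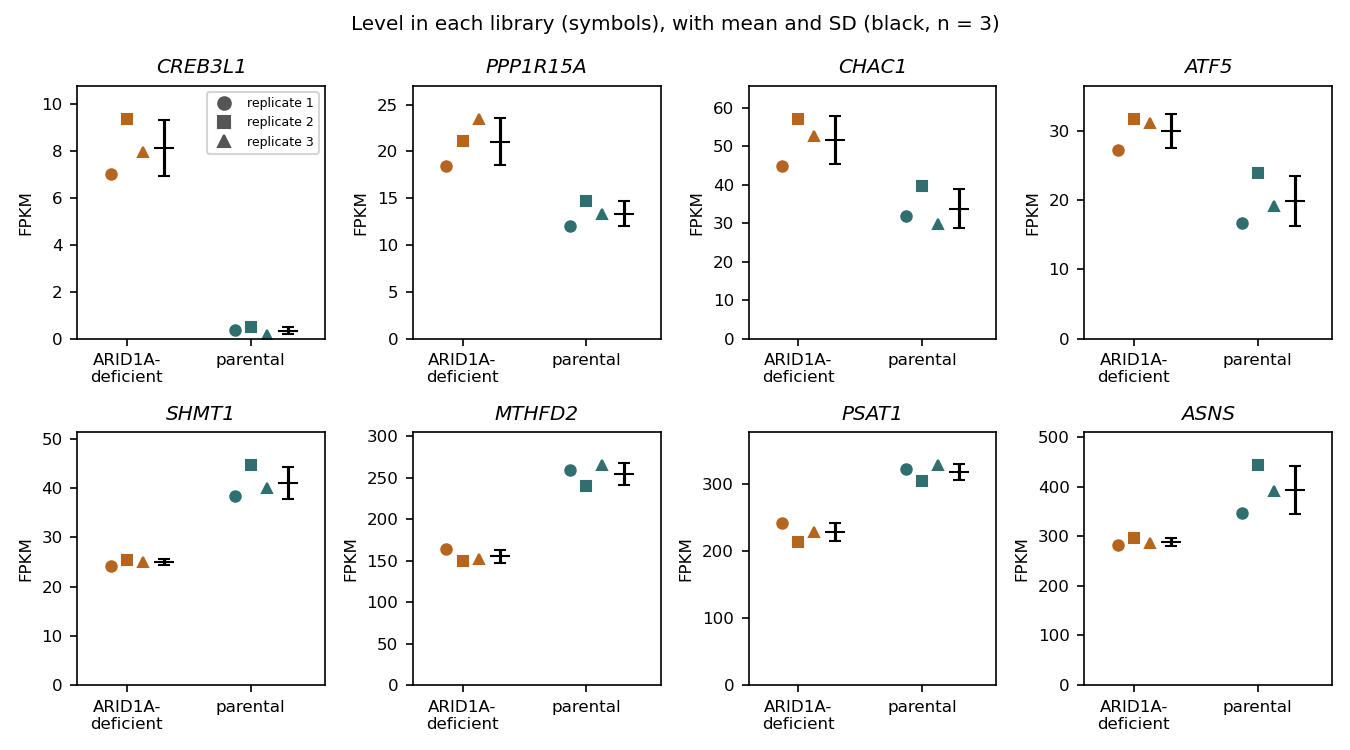
FPKM in each library (vertical axis, from 0) for the 7 called genes and ASNS, with ARID1A-deficient libraries on the left and parental libraries on the right of each panel. Symbols mark replicates 1 to 3 and black bars the mean with SD (n = 3); the groups lie apart in every panel, above parental values for CREB3L1, PPP1R15A, CHAC1 and ATF5 and below them for SHMT1, MTHFD2, PSAT1 and ASNS.

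Genes of the amino acid response and of serine and folate-linked metabolism held 4 of the 7 calls, 1 higher and 3 lower among 9 tested, where 7.82% of all genes tested were higher and 8.11% lower. Without ARID1A-deficient library 2 or 3 or parental library 3 the counts were 0 higher and 1 lower. CHAC1, an enzyme that breaks down glutathione and a sensitive target of the ATF4 pathway, measured 44.8, 57.2 and 52.8 FPKM in ARID1A-deficient libraries, against 32.0, 39.7 and 29.9 FPKM in parental libraries. The CHAC1 groups did not overlap. CHAC1 rose 1.53-fold (log2 fold change 0.60, SE 0.14, adjusted p = 0.0311), and the call ended without ARID1A-deficient library 2 or 3 or parental library 1 or 3 (highest adjusted p = 0.127). ASNS, asparagine synthetase and another direct ATF4 target, measured 282, 297 and 286 FPKM in ARID1A-deficient libraries, against 347, 443 and 391 FPKM in parental libraries. For ASNS the order was the reverse of CHAC1, with every ARID1A-deficient value below every parental value. The log2 fold change of ASNS was -0.44 (SE 0.15, adjusted p = 0.091) and it was not called. Other settings called ASNS lower, with an adjusted p of 0.00856 with quantile normalization, 0.00176 with a length slope covariate and 0.0438 without trend and robust moderation. ASNS shares 44.6% of its exonic bases with AC079781.5 on the same strand, and annotation names 4 ASNS pseudogenes that could share reads. VLDLR, a lipoprotein receptor gene that ATF4 can induce, measured 7.31, 5.70 and 7.09 FPKM in ARID1A-deficient libraries and 8.21, 5.31 and 7.58 FPKM in parental libraries, which overlapped.

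The promoters of ASNS and CHAC1 are shown because the values of these ATF4 targets lay on opposite sides of the parental ones. Each run is the 250 bases before the gene's start in RefSeq, build GRCh38.p14, read 5′ to 3′ on the gene's strand. ASNS lies at chr7:97872409-97872658 (minus strand) and CHAC1 at chr15:40953221-40953470 (plus strand). Capitals mark matches to TGATGNAA, the core of the C/EBP-ATF response element, on either strand.
ASNS: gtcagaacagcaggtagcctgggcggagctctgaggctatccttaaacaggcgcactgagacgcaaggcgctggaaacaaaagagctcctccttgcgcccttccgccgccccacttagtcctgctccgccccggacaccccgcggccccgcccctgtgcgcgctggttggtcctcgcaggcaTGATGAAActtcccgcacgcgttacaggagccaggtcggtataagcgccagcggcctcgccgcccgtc
CHAC1: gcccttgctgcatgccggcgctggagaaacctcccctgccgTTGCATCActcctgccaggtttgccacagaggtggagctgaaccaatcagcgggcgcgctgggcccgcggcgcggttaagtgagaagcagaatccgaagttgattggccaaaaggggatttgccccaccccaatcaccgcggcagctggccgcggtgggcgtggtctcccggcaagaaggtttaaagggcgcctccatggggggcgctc
The match in ASNS runs from -68 to -61 on the gene's strand and that in CHAC1 from -209 to -202 on the opposite strand. A RefSeq promoter was found for 39 of the 45 genes, and 4 of these hold such a match, also PPP1R15B and HERPUD1. That is 10.3% of them, against 3.14% of 35116 promoters of the same length. Some of the genes were chosen as ATF4 targets, so this frequency is no independent finding. The promoters of NUPR1, PSPH, ERN2, DERL3, SHMT2 and PDIA3 were not analysed here. A match of letters is a description and shows no binding.

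Serine synthesis starts from a glycolytic intermediate and runs through PHGDH, PSAT1 and PSPH in that order. PHGDH measured 740, 922 and 880 FPKM in ARID1A-deficient libraries and 720, 1008 and 780 FPKM in parental libraries. These PHGDH ranges covered each other (log2 fold change 0.03, 95% confidence interval -0.44 to 0.50). PSAT1, the aminotransferase of the pathway, measured 241, 213 and 229 FPKM in ARID1A-deficient libraries, against 321, 304 and 327 FPKM in parental libraries. The PSAT1 groups lay clearly apart, with means of 228 ± 13.9 and 317 ± 12.1 FPKM (SD, n = 3 each). PSAT1 fell 1.39-fold (log2 fold change -0.48, SE 0.13, adjusted p = 0.0447). The PSAT1 call is near the threshold and held in only 1 of 6 fits that each dropped a library, that without parental library 2 (highest adjusted p = 0.194), and ended with quantile normalization (adjusted p = 0.0615). PSPH, the phosphatase of the last step, measured 40.8, 40.6 and 40.4 FPKM in ARID1A-deficient libraries, against 46.6, 50.4 and 49.0 FPKM in parental libraries. The PSPH groups lay apart without a call (log2 fold change -0.26, SE 0.08, adjusted p = 0.077).

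Serine hydroxymethyltransferases turn serine into glycine and pass a carbon unit to folate. SHMT1, the cytosolic enzyme, measured 24.3, 25.5 and 25.1 FPKM in ARID1A-deficient libraries, against 38.5, 44.6 and 40.1 FPKM in parental libraries. The 3 ARID1A-deficient values lay close together, far below the lowest parental value. SHMT1 fell 1.65-fold (log2 fold change -0.70, SE 0.09, adjusted p = 0.00269) and stayed called with each single library left out (highest adjusted p = 0.0233). SHMT2, the mitochondrial enzyme, measured 265, 301 and 298 FPKM in ARID1A-deficient libraries and 290, 349 and 304 FPKM in parental libraries. The SHMT2 groups overlapped (log2 fold change -0.12, 95% confidence interval -0.46 to 0.21). MTHFD2, the mitochondrial folate enzyme next in the route, measured 164, 149 and 152 FPKM in ARID1A-deficient libraries, against 260, 240 and 265 FPKM in parental libraries. No MTHFD2 value overlapped, and the gene fell 1.64-fold (log2 fold change -0.71, SE 0.12, adjusted p = 0.00857). The MTHFD2 call ended without ARID1A-deficient library 2 or 3 or parental library 3 (highest adjusted p = 0.0633).

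SHMT1 and MTHFD2 lie among neighbours whose levels also ran lower. The median log2 fold change of 40 tested neighbours was -0.33 for SHMT1 on chromosome 17 and -0.31 for MTHFD2 on chromosome 2, where 90% of all genes had a neighbour median between -0.31 and 0.18. For PSAT1 on chromosome 9 it was -0.08, for CHAC1 0.04, for ATF5 0.11 and for PPP1R15A 0.06. The part of the neighbours in these results was not tested. MTHFD2 shares 33.2% of its exonic bases with other genes, most with SLC4A5 on the opposite strand, and annotation names 7 MTHFD2 and 4 PSAT1 pseudogenes that could share reads.

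**Figure D4:**
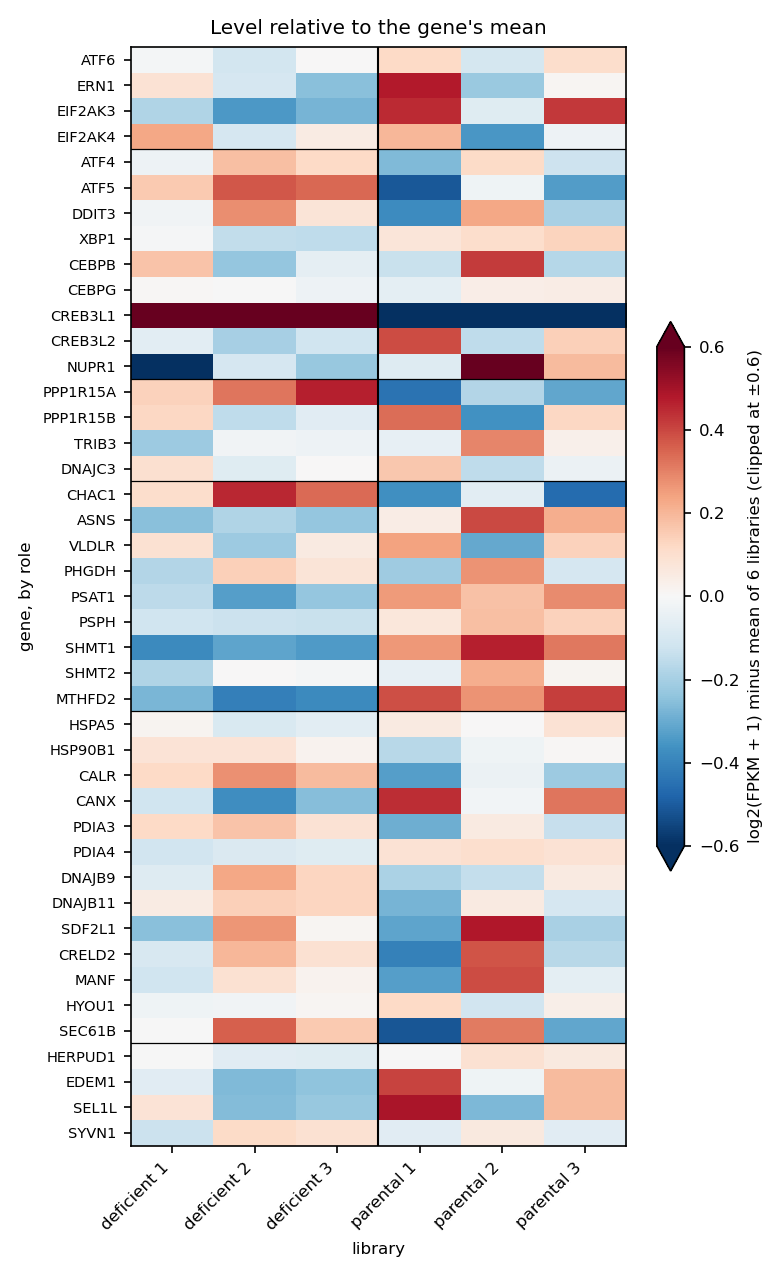
Level of 43 genes (rows, grouped by role as in the text) in 6 libraries (columns, ARID1A-deficient left of the black line, parental right), as log2(FPKM + 1) minus the gene's mean over the 6 libraries, with colours clipped at 0.6 in either direction. CREB3L1, ATF5, PPP1R15A and CHAC1 are red on the left, SHMT1, MTHFD2 and PSAT1 blue, and SDF2L1, CRELD2 and MANF are red mainly in parental library 2.

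The chaperones and folding factors gave no limma call among 13 tested, and before adjustment 1 was higher and 1 lower at p under 0.05. Of all 12826 genes tested, 15.9% were called, and before adjustment 1771 were higher and 2010 lower. HSPA5, which encodes BiP, the main ER chaperone and the usual readout of ER stress, measured 279, 259 and 264 FPKM in ARID1A-deficient libraries and 287, 276 and 293 FPKM in parental libraries. The HSPA5 groups overlapped, and the 95% confidence interval of the log2 fold change ran from -0.38 to 0.19. HSP90B1, the ER form of HSP90, measured 441, 440 and 422 FPKM in ARID1A-deficient libraries, against 370, 409 and 418 FPKM in parental libraries. The HSP90B1 groups lay apart by less than the parental spread (log2 fold change 0.12, adjusted p = 0.604).

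Calreticulin and calnexin, the soluble and the membrane-bound lectin chaperones that hold newly made glycoproteins, had values on opposite sides. CALR measured 766, 853 and 802 FPKM in ARID1A-deficient libraries, against 559.5, 688 and 605 FPKM in parental libraries. CANX measured 321, 270 and 293 FPKM in ARID1A-deficient libraries, against 475, 346 and 437 FPKM in parental libraries. All CALR values in ARID1A-deficient libraries were above the parental ones and all CANX values below them. Neither was called with all libraries, at log2 fold changes of 0.39 for CALR (SE 0.16, adjusted p = 0.158) and -0.50 for CANX (SE 0.17, adjusted p = 0.1). Without parental library 2 both were called, at 0.47 (adjusted p = 0.0324) and -0.63 (adjusted p = 0.00809). With any other single library left out neither was called (highest adjusted p = 0.404 for CALR and 0.305 for CANX). PDIA3, a disulfide isomerase that works with both lectins, measured 211, 218 and 206 FPKM in ARID1A-deficient libraries, against 158, 201 and 176 FPKM in parental libraries (adjusted p = 0.269, and adjusted p = 0.0498 without parental library 2). PDIA3 was not called with any other single library left out (highest adjusted p = 0.53). PDIA4, another disulfide isomerase, measured 102, 104 and 106 FPKM in ARID1A-deficient libraries, against 118, 119 and 118 FPKM in parental libraries, apart but not called (adjusted p = 0.26).

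Promoters of HSPA5, CALR and CANX are shown because they carry the ER stress element. ATF6 is known to act through this pair of boxes. Values of CALR and CANX lay on opposite sides of the parental ones and those of HSPA5 overlapped them. None of these genes was called with all libraries. The 250 bases before each RefSeq start (GRCh38.p14, gene's strand, 5′ to 3′) lie at chr9:125241344-125241593 (minus strand), chr19:12938359-12938608 (plus strand) and chr5:179698679-179698928 (plus strand). Capitals mark CCAAT and CCACG separated by 9 bases, on either strand.
HSPA5: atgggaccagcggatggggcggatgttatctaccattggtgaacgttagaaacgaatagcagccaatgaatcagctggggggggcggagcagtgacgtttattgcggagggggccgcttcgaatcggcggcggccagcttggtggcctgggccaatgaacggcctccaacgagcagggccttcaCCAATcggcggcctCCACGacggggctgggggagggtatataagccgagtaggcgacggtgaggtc
CALR: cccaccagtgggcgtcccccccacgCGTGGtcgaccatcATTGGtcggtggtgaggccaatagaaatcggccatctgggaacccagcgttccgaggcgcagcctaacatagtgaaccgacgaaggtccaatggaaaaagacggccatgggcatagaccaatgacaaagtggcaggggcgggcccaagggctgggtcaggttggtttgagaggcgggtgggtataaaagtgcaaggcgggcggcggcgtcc
CANX: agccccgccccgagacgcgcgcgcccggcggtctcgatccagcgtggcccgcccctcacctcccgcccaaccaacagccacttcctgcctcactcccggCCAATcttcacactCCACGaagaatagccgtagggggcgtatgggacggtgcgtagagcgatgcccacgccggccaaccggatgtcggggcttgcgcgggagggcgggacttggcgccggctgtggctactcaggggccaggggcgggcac
The element was found in 6 of the 39 promoters, also in XBP1, HSP90B1 and CRELD2. That is 15.4% of them, against 0.074% of all 35116 promoters of the same length, or 26 in all. Genes of this kind are known in part through this element, so its frequency here is no independent finding. Of the 6 genes, none was called by limma with all libraries, and their log2 fold changes ran from -0.50 for CANX to 0.39 for CALR. The core TGACGTG, known for XBP1 and ATF6 and likewise searched on both strands, was found in HYOU1 alone (2.56% of the 39, and 1.68% of all promoters).

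The remaining folding genes were described by small differences. SDF2L1, CRELD2 and MANF, which encode secretory pathway stress proteins, were highest in parental library 2 at 217, 87.0 and 293 FPKM, against at most 135, 59.2 and 214 FPKM in the other parental libraries. SDF2L1 measured 130, 187 and 156 FPKM, CRELD2 62.3, 76.6 and 71.1 FPKM and MANF 205, 238 and 226 FPKM in ARID1A-deficient libraries, all within the parental range. SEC61B, a subunit of the channel through which proteins enter the ER, measured 382, 491 and 427 FPKM in ARID1A-deficient libraries, against 268, 476 and 309 FPKM in parental libraries. The SEC61B difference was not called with all libraries (adjusted p = 0.408) and was without parental library 2 (log2 fold change 0.58, adjusted p = 0.0188). No other single library left out gave a SEC61B call (highest adjusted p = 0.709). The co-chaperones DNAJB9 and DNAJB11 had log2 fold changes of 0.19 and 0.21, and HYOU1, an exchange factor for BiP, -0.02.

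ER-associated degradation exports misfolded proteins to the cytosol for destruction by the proteasome. It gave no limma call among 4 tested genes, and before adjustment 0 of them were higher and 1 lower at p under 0.05. The background was again 15.9% of all 12826 genes called, with 1771 higher and 2010 lower before adjustment. EDEM1, a lectin that marks glycoproteins for removal, measured 19.6, 16.9 and 17.3 FPKM in ARID1A-deficient libraries, against 27.6, 20.1 and 23.6 FPKM in parental libraries. The EDEM1 groups lay apart by a small gap at parental library 2 (log2 fold change -0.38, SE 0.13, adjusted p = 0.094, and adjusted p = 0.00849 without that library). HERPUD1, an ER membrane protein strongly induced by ER stress, measured 55.02, 52.5 and 52.4 FPKM in ARID1A-deficient libraries, against 55.1, 58.7 and 57.4 FPKM in parental libraries. These HERPUD1 values all but touched (log2 fold change -0.10, 95% confidence interval -0.29 to 0.10). SEL1L, the scaffold of the ubiquitin ligase complex, had a log2 fold change of -0.27 (adjusted p = 0.435, and adjusted p = 0.0302 without parental library 2). With any other single library left out neither EDEM1 nor SEL1L was called (highest adjusted p = 0.269 and 0.801). SYVN1, the ligase HRD1 itself, measured 31.2, 37.1 and 36.5 FPKM in ARID1A-deficient libraries and 32.6, 35.7 and 32.6 FPKM in parental libraries, which overlapped. DERL3, a derlin of secretory tissues, was listed at 0 in 5 libraries and at 0.0756 FPKM in parental library 1.

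Other genes of these pathways were read from 10 lists written with the symbols as deposited, chosen with earlier results of these data known. Each count of calls with all libraries and the main settings stands against 15.9% of all genes called, 7.82% higher and 8.11% lower. Counts from other fits, or before adjustment, have other backgrounds and are not read as results about a list. Among other ATF4 and stress response genes, 6 of 20 tested fell and 1 rose (7 lower and 2 higher without parental library 2, 3 lower without any single ARID1A-deficient library or parental library 3; median log2 fold change -0.16, against -0.01 over all genes). PCK2, which makes phosphoenolpyruvate in mitochondria, measured 90.9, 108 and 107 FPKM in ARID1A-deficient libraries, against 210.1, 248 and 225 FPKM in parental libraries. NDRG1, a stress and hypoxia gene, measured 12.2, 11.6 and 12.3 FPKM in ARID1A-deficient libraries, against 27.6, 27.9 and 27.3 FPKM in parental libraries. Neither gene's groups overlapped. PCK2 fell 2.24-fold (adjusted p = 0.00162) and NDRG1 fell 2.30-fold (adjusted p = 0.000118). The neighbour median was -0.29 for PCK2 and -0.18 for NDRG1. VEGFA, a vascular growth factor that ATF4 can induce, fell 1.81-fold (adjusted p = 0.00556). FGF21 and GPT2 were also called lower and TXNIP higher. These names were picked after their values were seen, and the values are not given here. With any single ARID1A-deficient library left out, no gene of this list was called higher. CTH, which makes cysteine from cystathionine, fell 1.38-fold (adjusted p = 0.014) and was no longer called without any single ARID1A-deficient library or parental library 3 (highest adjusted p = 0.0761).

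Amino acid transporters linked to ATF4 had 4 of 10 tested genes lower and 0 higher in limma, with 0 higher also at an unadjusted p under 0.05 (6 lower without parental library 2, 3 without any single ARID1A-deficient library or parental library 3). SLC7A5, the large neutral amino acid carrier LAT1, measured 330, 348 and 371 FPKM in ARID1A-deficient libraries, against 775, 693 and 722 FPKM in parental libraries. SLC3A2, its heavy chain CD98, measured 456, 539 and 528 FPKM in ARID1A-deficient libraries, against 766, 983 and 831 FPKM in parental libraries. Both subunits of this exchanger were thus lower in every ARID1A-deficient library than in any parental one. SLC7A5 fell 2.09-fold (adjusted p = 0.00356), and SLC3A2 fell 1.69-fold (adjusted p = 0.0267) and was no longer called without any single ARID1A-deficient library or parental library 3 (highest adjusted p = 0.111). SLC43A1, another neutral amino acid transporter, fell 2.61-fold (adjusted p = 0.000379), and SLC1A4, a serine and alanine transporter, fell 1.43-fold (adjusted p = 0.00635), with a neighbour median of -0.36 for SLC1A4.

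The lists for protein synthesis held few calls, more of them without parental library 2, where 5 synthetase genes and 3 eIF2 genes were lower and 1 eIF2 gene higher. Cytosolic aminoacyl-tRNA synthetases had 1 of 19 lower and 0 higher, 5 and 0 before adjustment at p under 0.05, and the called gene was YARS, the tyrosyl enzyme (1.44-fold lower, adjusted p = 0.0224, a call that ended without any single ARID1A-deficient library or parental library 3, highest adjusted p = 0.113). The neighbour median of YARS was -0.25. Genes of eIF2, its exchange factor and other eIF2 kinases had 1 of 11 lower, EIF2AK1, the kinase of the haem response (1.30-fold lower, adjusted p = 0.0409). Of 6 fits that each left out a library, the EIF2AK1 call held in that without parental library 2 (highest adjusted p = 0.155).

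Further folding, transport and secretion targets of XBP1 and ATF6 had 5 of 36 higher and 3 lower, or 22.2% called against 15.9% of all genes (9 higher and 4 lower without parental library 2, 1 higher without any other single library, and 1 lower without ARID1A-deficient library 2 or 3 or parental library 3). Those that rose beside KDELR3 were RPN1, SSR3, SRPRB and DNAJC1, named after their values were seen. KDELR3, a receptor that returns ER proteins from the Golgi, rose 1.53-fold (adjusted p = 0.00754). TRAM1, a helper of ER import, fell 1.87-fold (adjusted p = 0.00129), with a neighbour median of -0.62. GFPT1, the entry enzyme of hexosamine synthesis, fell 1.90-fold (adjusted p = 0.0124) and ERO1LB, an oxidase for disulfide formation, fell 1.81-fold (adjusted p = 0.0158); both calls ended without ARID1A-deficient library 2 or 3 or parental library 3 (highest adjusted p = 0.0664 and 0.0755), and the neighbour median of GFPT1 was -0.32.

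Of 17 further degradation genes, 2 rose and 0 fell (limma), with 2 lower at an unadjusted p under 0.05, and without parental library 2 the counts were 4 higher and 3 lower. VCP, the ATPase that pulls proteins from the ER membrane, measured 215, 210 and 214 FPKM in ARID1A-deficient libraries, against 149, 155 and 150 FPKM in parental libraries (adjusted p = 0.0242), with a neighbour median of 0.37. UBE2G2, a ubiquitin-conjugating enzyme of this route, rose 1.33-fold (adjusted p = 0.0145). The VCP call ended without any single library but parental 2 and the UBE2G2 call without any single ARID1A-deficient library or parental library 3 (highest adjusted p = 0.133 and 0.0735).

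Among site proteases and ER membrane factors, 1 of 5 rose and 1 fell (1 higher and 2 lower without parental library 2). CREB3, a relative of CREB3L1, measured 61.9, 78.4 and 72.5 FPKM in ARID1A-deficient libraries, against 37.5, 54.3 and 41.3 FPKM in parental libraries (adjusted p = 0.0332, highest adjusted p = 0.129 with a library left out), with a neighbour median of 0.44. CREB3L4, another relative, measured 15.3, 17.2 and 15.8 FPKM in ARID1A-deficient libraries, against 23.5, 27.4 and 22.5 FPKM in parental libraries (adjusted p = 0.0103, and adjusted p = 0.0594 without ARID1A-deficient library 3). Within the family, CREB3L1 and CREB3 were thus higher, CREB3L4 lower and CREB3L2 not called. Of 6 fits that each left out a library, the CREB3 call held only in that without parental library 2. The neighbour median of CREB3 lay above 0.18, the 95th percentile of all genes, and its part was not tested.

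Folate and glycine cycle genes had 1 of 13 higher and 0 lower (limma), with 3 lower at an unadjusted p under 0.05 and 4 called lower without parental library 2. The called gene was SLC25A32, the mitochondrial folate carrier, which rose 1.53-fold (adjusted p = 0.0293). The SLC25A32 call ended without any single ARID1A-deficient library or parental library 3 (highest adjusted p = 0.131). Mitochondrial stress genes had 2 of 11 lower and 0 higher in limma (1 higher and 2 lower without parental library 2, 0 lower without ARID1A-deficient library 3 or parental library 3), with 0 higher also at an unadjusted p under 0.05. These were TRAP1, a mitochondrial HSP90 that fell 1.61-fold (adjusted p = 0.0267), and DNAJA3, a mitochondrial co-chaperone that fell 1.39-fold (adjusted p = 0.00778), with neighbour medians of -0.36 and -0.38. The TRAP1 call ended without any single ARID1A-deficient library or parental library 3, and the DNAJA3 call without ARID1A-deficient library 3 or parental library 3 (highest adjusted p = 0.1 and 0.0561). Cytosolic heat shock genes gave no limma call among 10 tested, while before adjustment 3 were higher and 0 lower at p under 0.05. Without parental library 2, 2 heat shock genes were called higher, and with a length slope covariate 3 were higher and 1 lower. The inducible cytosolic HSP70 genes HSPA1A and HSPA1B had a 0 in every library, and so did VARS and ATF6B. ATF6B, from the list of site proteases and ER membrane factors, was therefore not tested. All of these genes lie on chromosome 6. VARS encodes a synthetase that every cell needs, so an exact 0 here can be a failed estimate.

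**Figure D5:**
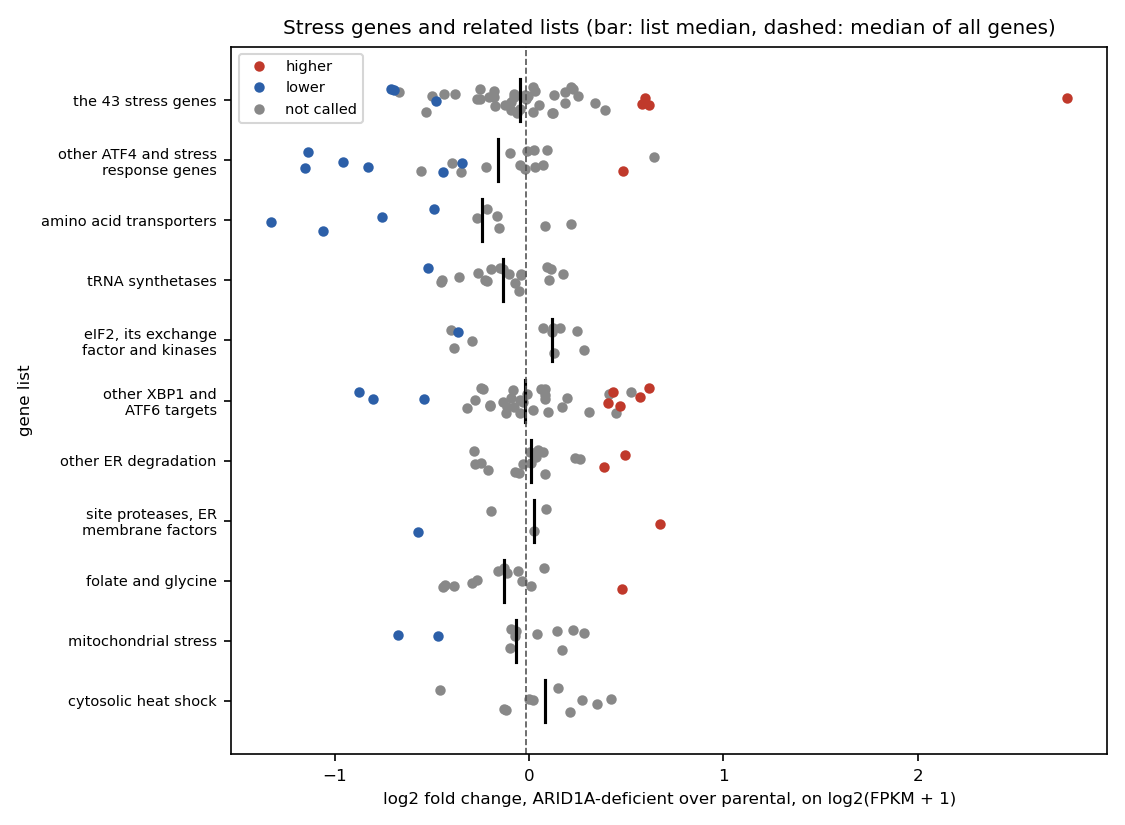
Log2 fold change of each tested gene, ARID1A-deficient over parental, on the log2(FPKM + 1) scale (horizontal axis), for the 43 stress genes and 10 lists of related genes (rows). Coloured points passed limma at an adjusted p under 0.05, black bars are list medians and the dashed line is the median of all genes, -0.01; the 4 called amino acid transporters all lie below 0, at -1.33 to -0.49.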

How the data were processed

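RNA of 6 L3.6pl libraries was profiled, 3 ARID1A-deficient and 3 parental, grouped and numbered by sample title. Total RNA (TRIzol) went into TruSeq v2 libraries, per the labels' protocols, a kind that does not mark strand. The authors deposited 1 FPKM value per gene and library. The submitters' processing notes name build GRCh37 (hg19), Cuffdiff 2.2.1.5, Cuffnorm 2.2.1.2 and TopHat2 2.1.1, with no annotation, filter or scaling option. FPKM depends on the transcript length assumed, and total RNA per cell is not visible.

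Each table held 23273 rows. The 28 rows whose symbol had become a date were left out. limma 3.58.1 (R 4.3.3, trend and robust moderation) was fitted to log2(FPKM + 1) with a group term alone, two-sided, over the 12826 genes whose mean reached 0.5 FPKM, and p-values were adjusted by the Benjamini-Hochberg method over all of them (threshold 0.05). The procedure was tested on simulated data. A fold is the ratio of mean FPKM; log2 fold changes include the pseudocount and understate changes of low genes. Total fragments being unknown, precision rests on the spread between 3 libraries, and a gene listed at 0 gets no fold.

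The genes and lists were chosen with earlier results of these data known. Values in full are given for called genes, ASNS, PSAT1, CHAC1, the central regulators and genes a role group needed, and for up to 4 called genes of smallest adjusted p per related list. Transcript lengths (longest in GENCODE 29), exon overlaps, gene order (20 tested genes to each side) and promoters (RefSeq) are of build GRCh38; a length was found for 96.0% and a place for 96.7% of tested genes. Same-numbered libraries of the groups were compared for pairing. Alternatives were other filters, a pseudocount of 0.1, quantile and median-ratio normalization, a replicate block, a length covariate, plain moderation and leaving out each library.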

Additional observations from a re-analysis of the deposited data

How the results depend on the processing

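CREB3L1, PPP1R15A, CHAC1, ATF5, SHMT1 and MTHFD2 were called in the same direction under all 8 alternatives that kept every library, and PSAT1 under 7 of them. The number of stress genes called lower was 3 with all settings as reported, 5 with quantile normalization, 10 with the length slope covariate and 9 with the replicate block; all genes called numbered 2043, against 4062 with the length slope covariate. With the replicate block all genes called numbered 4049. Same-numbered libraries had correlations of deviations of 0.219, 0.217 and -0.0131, and differently numbered ones between -0.267 and 0.0825. Libraries 1 and 2 thus correlated most with the library of their own number, and library 3 did not. The labels state no pairing, so the main fit has none, and whether same-numbered libraries share a source was not tested. The added lower calls with the replicate block were ASNS, CANX, EDEM1, EIF2AK3, NUPR1 and PSPH, and CALR was added as higher. With 1 library left out, all genes called ranged from 960 to 4113, stress genes called higher from 1 to 8 and lower from 1 to 8. Small uncalled differences changed sign: with quantile normalization CEBPG (0.010) and SDF2L1 (-0.012); with median-ratio scaling MANF (0.0070); with the length slope covariate PPP1R15B (0.064), VLDLR (0.061), PHGDH (-0.063), SDF2L1 (-0.140), CRELD2 (-0.014) and HYOU1 (0.018). With 1 library left out, log2 fold changes ranged from -0.026 to 0.250 for EIF2AK4, -0.183 to 0.113 for CEBPB, -0.260 to 0.089 for PPP1R15B, -0.054 to 0.102 for DNAJC3, -0.214 to 0.059 for VLDLR, -0.071 to 0.171 for PHGDH, -0.134 to 0.264 for SDF2L1, -0.041 to 0.351 for CRELD2, -0.171 to 0.190 for MANF and -0.088 to 0.030 for HYOU1. The cause was not tested. Depth in fragments is unknown, which limits statements on ERN1, ERN2 and DERL3.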
